A study of Homo sapiens with 4 samples.

Results

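The clustered protocadherins are neighbouring genes on the long arm of chromosome 5 that encode cell-adhesion proteins of the cadherin superfamily. They were taken here as the protein-coding genes between 140.1 and 140.95 Mb of chromosome 5 (hg19, GRCh37) whose symbols begin with PCDHA, PCDHB or PCDHG. The rule gave 53 of 19821 protein-coding genes, of which 15 formed the alpha cluster (PCDHA), 16 the beta cluster (PCDHB) and 22 the gamma cluster (PCDHG). No measured value entered this choice. DNA methylation had been measured by reduced representation bisulfite sequencing (RRBS) in 4 libraries of SKOV3, an established cell line from a human ovarian cancer, mesenchymal-like in its parental form. The clones with mesenchymal (M) phenotype were shC-S, with a control shRNA, and LY75-R-S (Ly75-OV-S in the labels), for which LY75 was expressed again in the LY75 knockdown cells from a cDNA resistant to the shRNA. Of the clones with epithelial (E) phenotype, sh-LY75-S had the antigen receptor LY75 knocked down with shRNA and LY75-KO-S had the gene knocked out with CRISPR. All were grown in RPMI with 10% fetal bovine serum. Each clone was 1 library, so there was no replicate, and no test between conditions was made here. A difference between clones cannot be told apart from a difference that follows LY75.

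Each clustered protocadherin protein has extracellular cadherin repeats, a single membrane-spanning segment and a cytoplasmic tail. In the alpha and gamma clusters every gene has its own large first exon, which codes for the extracellular and membrane-spanning parts. It is spliced to constant exons that all genes of the cluster share, whereas beta genes consist of the large exon alone. Neurons choose a few of the promoters at random, through CTCF binding and promoter methylation, and the resulting set of surface proteins lets a neuron tell its own branches from those of others. In cancers the clusters are known as a region where CpG-rich first exons gain methylation over long distances. In the reference, the first exons of the 53 genes measured 2355 to 7973 bases, with a median of 2601. There were 3 constant exons in alpha and 3 in gamma.

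The question was where in these clusters methylation differed between M and E cells. The authors had compared the libraries in tiles, which are consecutive windows of 1000 bases, and deposited the tiles that passed their thresholds as 3 tables, namely the knockdown comparison (plotted as shC-S vs. sh-LY75-S), the knockout comparison (plotted as LY75-R-S vs. LY75-KO-S), plus a mix that sets both M clones against both E clones. A tile in a table is called listed here. Only the positions of listed tiles were used, so the values that follow say where methylation differed past the authors' thresholds and not in which direction or by how much. An unlisted tile may have been too thinly covered or may have differed less, and these cannot be told apart, because depth is unknown. The first 2 tables share no library, although LY75-R-S was derived from knockdown cells, whereas the mix reuses the same 4 libraries. Because MspI cuts at CCGG and short fragments are sequenced from their ends, RRBS sees only part of the genome. A tile was counted as reachable when, in the reference, it held a CpG within 50 bases of the end of an MspI fragment of 40 to 220 bases. The interval held 850 tiles, of which 222 were reachable, and all 53 genes had at least 1 reachable tile over the first exon.

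The following stretches of the coding first exon show what RRBS reads in 3 listed tiles, 1 per cluster. These stretches were picked with the tables known and lie on the plus strand of GRCh37, with the MspI sites in capitals. PCDHA5 is shown because its tile was the one listed in both single comparisons (chr5:140201361-140201660), PCDHB12 because its tile held the most reachable CpGs of the listed tiles (chr5:140590059-140590358), and PCDHGB6 because its tile was the gamma first-exon tile listed both in the knockdown comparison and in the mix (chr5:140787770-140788000).
PCDHA5: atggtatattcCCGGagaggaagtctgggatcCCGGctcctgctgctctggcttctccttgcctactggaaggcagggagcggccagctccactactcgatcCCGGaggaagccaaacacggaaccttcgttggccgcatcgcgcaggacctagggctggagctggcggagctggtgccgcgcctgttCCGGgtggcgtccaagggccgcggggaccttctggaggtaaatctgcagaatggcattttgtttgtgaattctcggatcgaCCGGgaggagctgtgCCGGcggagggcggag
PCDHB12: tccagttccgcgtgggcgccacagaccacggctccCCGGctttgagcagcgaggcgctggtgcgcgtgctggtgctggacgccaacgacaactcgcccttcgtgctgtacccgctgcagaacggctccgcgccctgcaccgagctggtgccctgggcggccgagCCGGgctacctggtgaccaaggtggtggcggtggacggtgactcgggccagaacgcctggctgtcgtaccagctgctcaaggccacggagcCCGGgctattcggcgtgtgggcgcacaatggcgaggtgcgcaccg
PCDHGB6: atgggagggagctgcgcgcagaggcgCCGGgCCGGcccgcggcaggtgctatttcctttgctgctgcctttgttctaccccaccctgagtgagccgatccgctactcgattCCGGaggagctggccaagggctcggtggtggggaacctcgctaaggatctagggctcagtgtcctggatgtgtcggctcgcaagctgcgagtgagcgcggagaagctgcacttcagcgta
The PCDHA5 stretch begins at the start codon and holds 6 MspI sites and 23 CpGs, 19 of them reachable. The PCDHB12 stretch lies far inside the exon and holds 3 sites and 34 CpGs, 26 of them reachable. The PCDHGB6 stretch of 231 bases also begins at the start codon and holds 3 sites and 19 CpGs, 11 of them reachable.

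Some reads from here have no unique place, both in the genes, which are close copies of each other, and in the spaces between them. An example of the latter is chr5:140456001-140457000, a tile in no exon, where 4 of 4 read windows recurred. After conversion of every C to T, 180 of 776 read windows of 50 bases in the interval (23.2%) occurred again, letter for letter, elsewhere in the interval. In listed tiles this held for 19 of 118 read windows (16.1%), of which 7 of 10 were in the PCDHB12 tile, 3 of 4 in the PCDHA12 tile and the only 1 in the PCDHA11 tile. The tiles of PCDHA2, PCDHA5, PCDHGB6 and PCDHGB7 held 2 each. Such reads cannot be assigned to 1 copy by their sequence alone. Whether the authors' alignment placed or dropped them is not known here, and their part in the lists was not tested.

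In all, 23 tiles of the interval were listed in the knockdown comparison, 7 in the knockout comparison and 12 in the mix. As a share of reachable tiles this was 10.4% (exact 95% binomial interval 6.68 to 15.1, counting error only) against 12.5% over all reachable tiles of the genome in the knockdown comparison. In the knockout comparison it was 2.7% (0.998 to 5.79) against 6.67%, from 6 reachable tiles, as the remaining listed tile was not reachable in the reference. In the mix it was 5.41% (2.82 to 9.25) against 5.18%. The clusters thus lay near the genome in the knockdown comparison and in the mix and below it in the knockout comparison. Over first exons, which hold most of the reachable tiles here, 18 of 131 tiles (13.7%) were listed in the knockdown comparison against 14.1% of the reachable first-exon tiles of all genes. The corresponding values were 4 of 131 (3.05%) against 3.41% in the knockout comparison and 7 of 131 (5.34%) against 6.11% in the mix. Set against first exons alone, the protocadherin exons were near the background in each table, including the knockout comparison. The HOX clusters, another set of neighbouring developmental genes on which methylation is known to change over long distances in cancer, were added for comparison after the tables had been seen. There, 28.5%, 7.38% and 12.4% of 298 reachable tiles were listed in the knockdown comparison, the knockout comparison and the mix, respectively.

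**Figure D1:**
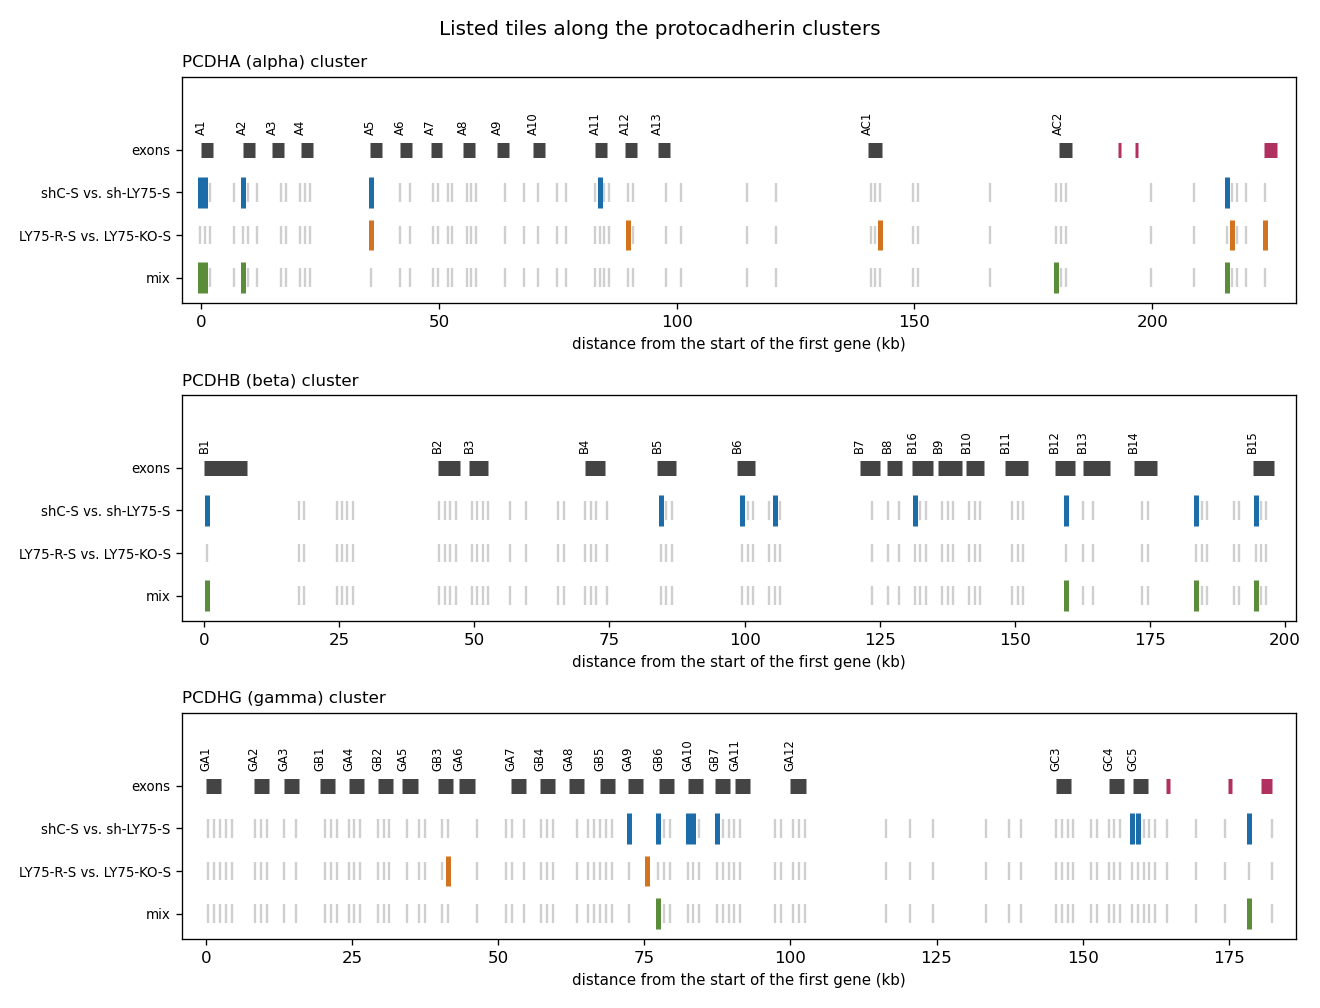
Positions of tiles along the alpha, beta and gamma clusters, as distance in kb from the start of the first gene of each. Dark bars are first exons (symbols without PCDH), red bars constant exons, grey lines reachable tiles and coloured lines listed tiles, 1 row per table; the beta cluster has 8 listed tiles in the knockdown comparison and 0 in the knockout comparison.

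The 3 clusters differed little in the knockdown comparison and more in the knockout comparison. In the knockdown comparison, 6 of 53 reachable tiles were listed in alpha (11.3%, interval 4.27 to 23), 8 of 60 in beta (13.3%, 5.94 to 24.6) and 8 of 79 in gamma (10.1%, 4.47 to 19), so the intervals overlapped almost wholly. In the knockout comparison, 5 reachable tiles were listed in alpha (9.43%, 3.13 to 20.7), 0 in beta (0%, up to 5.96) and 1 in gamma (1.27%, 0.032 to 6.85). Of the 7 listed tiles of this comparison, 5 thus lay in alpha, but the intervals of all 3 clusters overlapped. Such overlap is not a test, and the difference between clusters was not tested. In the mix, 5 tiles were listed in alpha (9.43%), 4 in beta (6.67%) and 2 in gamma (2.53%). The 30 reachable tiles of the interval outside the clusters held 1, 0 and 1 listed tiles, the 1 in both tables being chr5:140677001-140678000, between the beta and the gamma cluster.

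**Figure D2:**
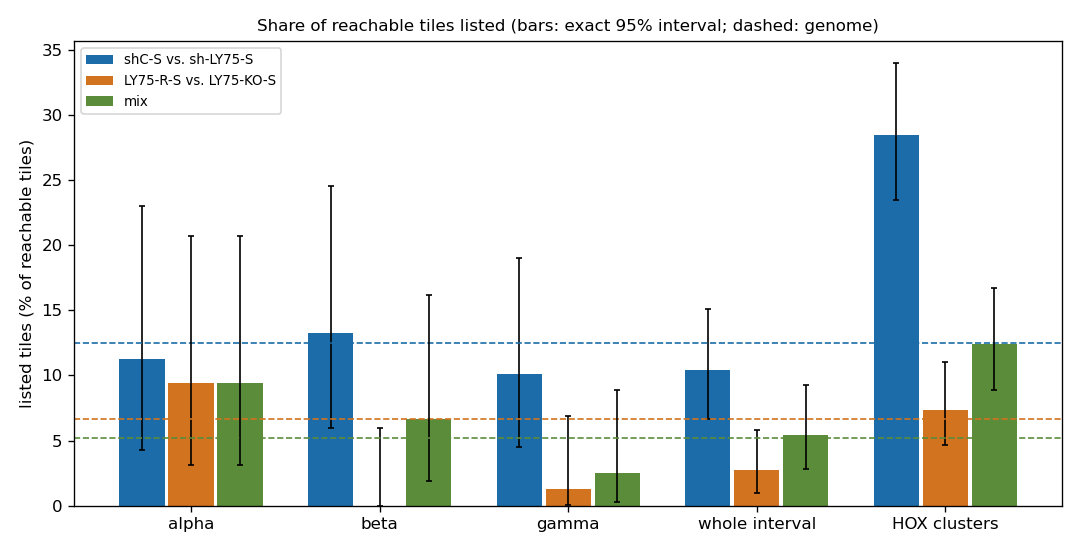
Listed tiles as a percentage of reachable tiles in each cluster, in the whole interval and in the HOX clusters, by table. Error bars are exact 95% binomial intervals (counting error only) and dashed lines the percentage over all reachable tiles of the genome, 12.5, 6.67 and 5.18; the beta cluster has no orange bar, as 0 of 60 tiles were listed.

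Counted by gene, 15 of the 53 protocadherins (28.3%) had a listed tile over the first exon in the knockdown comparison, 4 (7.55%) in the knockout comparison and 6 (11.3%) in the mix. Over all genes with a reachable first exon the shares were 15.8%, 4.09% and 7.21%. First exons of protocadherins are long and span several tiles, however, and among 383 other genes with a first exon of at least 2000 bases the shares were 38.1%, 9.92% and 19.6%. These longer genes were picked with the tables known. Set against these genes, which were matched by that minimum length alone and not by reachable tiles, the protocadherins had the lower share in each table. This difference was not tested. Altogether 18 genes, 6 in each cluster, had a listed first-exon tile in at least 1 table, and 35 had none, 9 in alpha, 10 in beta and 16 in gamma. The share of other genes listed in at least 1 table was not counted, so this count has no background beside it.

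In the alpha cluster 4 genes had a listed first exon in the knockdown comparison, 3 in the knockout comparison and 2 in the mix. PCDHA1, the first gene of the cluster, had 2 adjoining tiles listed in the knockdown comparison and in the mix, chr5:140165001-140166000 over the start of the exon and chr5:140166001-140167000 within it, with 6 reachable CpGs each. An unnamed gene, ENSG00000279726, is annotated over both. PCDHA2 next to it had its start tile (chr5:140174001-140175000, 14 reachable CpGs) listed in the same tables. PCDHA5 had its start tile (chr5:140201001-140202000, 19 reachable CpGs, 7 MspI sites) listed in the knockdown comparison and in the knockout comparison. It was the sole tile of the interval listed in both single comparisons, and it was not listed in the mix of the same libraries. PCDHA11 had a tile inside the exon (chr5:140249001-140250000, 4 reachable CpGs) listed in the knockdown comparison. PCDHA12 had a tile just after the exon start (chr5:140255001-140256000, 13 reachable CpGs) listed in the knockout comparison.

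The genes in between carried none. The 5 neighbours PCDHA6 to PCDHA10, with 9 reachable first-exon tiles, had 0 listed in any table, and so did PCDHA3 and PCDHA4, with 5. The remaining alpha genes without a listed tile were PCDHA13 and PCDHAC2. In the knockdown comparison the listed tiles were 132 kb apart across the end of the row of first exons. There, PCDHA12, PCDHA13, PCDHAC1 and PCDHAC2 had 8 reachable first-exon tiles. These stretches were delimited with the tables known and were not tested. Over reachable first-exon tiles of all genes, 14.1% were listed in the knockdown comparison, 3.41% in the knockout comparison and 6.11% in the mix. At such shares, 0 among so few tiles says little.

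The C-type genes stand at the ends of the alpha and gamma rows and are known mainly for constitutive expression in neurons, without the random choice of the others. PCDHAC1 had 1 tile listed (chr5:140308001-140309000, 3 reachable CpGs), near the end of its first exon and in the knockout comparison alone. PCDHAC2, the last alpha gene, had no listed first-exon tile. The tile before its start (chr5:140345001-140346000, 7 reachable CpGs) was listed in the mix and in neither single comparison. That tile overlaps an exon of the unnamed gene ENSG00000279028. PCDHGC5, the last gamma gene, had its start tile (chr5:140868001-140869000, 3 reachable CpGs) and the next (chr5:140869001-140870000, 2 reachable CpGs) listed in the knockdown comparison. PCDHGC3, with 4 reachable first-exon tiles and 90 reachable CpGs, and PCDHGC4, with 3 and 24, had none in any table. No tile pattern over the 3 tables was common to the C-type genes.

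In the beta cluster 6 genes had a listed first exon in the knockdown comparison, and 3 of them also in the mix. PCDHB1, the first gene, had a tile 42 bases into the exon (chr5:140431001-140432000) listed in both, with 9 reachable CpGs. It was the gene's only reachable tile among 9. PCDHB12 had its tile deep in the exon (chr5:140590001-140591000) listed in both, with 43 reachable CpGs of 72 and 7 MspI sites. PCDHB15, the last gene, had the tile 38 bases into its exon (chr5:140625001-140626000, 9 reachable CpGs) listed in both. PCDHB5 (chr5:140515001-140516000, 5 reachable CpGs), PCDHB6 (chr5:140530001-140531000, 22) and PCDHB16 (chr5:140562001-140563000, 2) were listed in the knockdown comparison alone. PCDHB2 to PCDHB4, with 12 reachable first-exon tiles, and PCDHB9 to PCDHB11, with 9, had 0 in any table. The stretches PCDHB2 to PCDHB4 and PCDHB9 to PCDHB11 were delimited with the tables known, and no test was made of them. Over reachable first-exon tiles of all genes, 14.1% were listed in the knockdown comparison, 3.41% in the knockout comparison and 6.11% in the mix. The other unlisted beta genes were PCDHB7, PCDHB8, PCDHB13 and PCDHB14.

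The beta cluster also holds pseudogenes, former copies that no longer code for a protein. The PCDHB17P tile (chr5:140536001-140537000, 5 reachable CpGs) was listed in the knockdown comparison, and the PCDHB18P tile (chr5:140614001-140615000, 8 reachable CpGs) there and in the mix. In the knockout comparison no tile of the cluster was listed, and the listed tiles on either side of it were 362 kb apart.

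In the gamma cluster 4 of the 5 genes with a listed first exon in the knockdown comparison stood next to each other, the other being PCDHGC5. PCDHGA9, PCDHGB6, PCDHGA10 and PCDHGB7 follow each other within 17 kb, and each had its start tile listed. These tiles were chr5:140782001-140783000 with 19 reachable CpGs, chr5:140787001-140788000 with 34, chr5:140792001-140793000 with 17 and chr5:140797001-140798000 with 25. PCDHGA10 had a further tile listed within the exon (chr5:140793001-140794000, 26 reachable CpGs). Of these 5 tiles among 10 reachable ones in the 4 first exons, only the PCDHGB6 tile was also listed in the mix. In contrast, the 13 genes from PCDHGA1, the first of the cluster, to PCDHGB5, which end just before PCDHGA9, had 31 reachable first-exon tiles and 0 listed in this comparison. Over reachable first-exon tiles of all genes, 14.1% were listed in this comparison. The stretches were delimited after the tables had been seen, and no test was made of them. Directly after the 4 genes, PCDHGA11 and PCDHGA12, and then PCDHGC3 and PCDHGC4, had 0 of 12 listed in any table.

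The knockout comparison listed other places in gamma. These were a tile within the PCDHGB3 exon (chr5:140751001-140752000), with 1 reachable CpG out of 69, and a tile just behind the PCDHGA9 exon (chr5:140785001-140786000), which had no reachable CpG unless fragments of 20 to 400 bases were allowed, and then 3. By the reference, both thus hold few CpGs within reach. The CpGs that were in fact covered are unknown.

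Outside first exons few tiles were listed. Of the 4 reachable tiles over constant exons, which all alpha or all gamma transcripts share, 1 was listed, over the last constant exon of alpha (chr5:140389001-140390000, 3 reachable CpGs) and in the knockout comparison alone. Of 20 reachable tiles over exons of other genes, 2 were listed in the knockdown comparison, both of them the pseudogenes. In the 2 clusters with constant exons, tiles also were listed in the intron before the last one. In alpha these were chr5:140381001-140382000 (6 reachable CpGs) in the knockdown comparison and in the mix, and the adjoining chr5:140382001-140383000 (2 reachable CpGs) in the knockout comparison. In gamma it was chr5:140888001-140889000 (9 reachable CpGs), in the knockdown comparison and in the mix. Of the 65 reachable tiles in no exon or promoter, 3 (4.62%), 1 (1.54%) and 3 (4.62%) were listed in the knockdown comparison, the knockout comparison and the mix.

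Within first exons, the tile over the transcription start was compared with the later tiles, a split made after the tables had been seen. A start tile also holds bases before the exon. In the knockdown comparison, 8 of 29 reachable start tiles (27.6%, interval 12.7 to 47.2) and 10 of 102 later tiles (9.8%, 4.8 to 17.3) were listed. The same split was not made over all genes, so whether these shares are particular to the protocadherins was not tested. The order of start and later tiles was not the same in each cluster. In alpha 3 of 7 start tiles and 2 of 25 later tiles were listed, and in gamma 5 of 17 and 2 of 40. In beta 0 of 5 start tiles, which allows a share of up to 52.2%, and 6 of 37 later tiles were listed. The other tables had few listed tiles of either kind, 1 of 29 and 3 of 102 in the knockout comparison and 3 of 29 and 4 of 102 in the mix. The intervals overlapped in every case, but they count adjoining tiles as independent. Overlap is not a test of the difference, and none was made. Only 29 of the 53 start tiles could be reached, so 24 genes could not have a listed start tile by this measure.

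**Figure D3:**
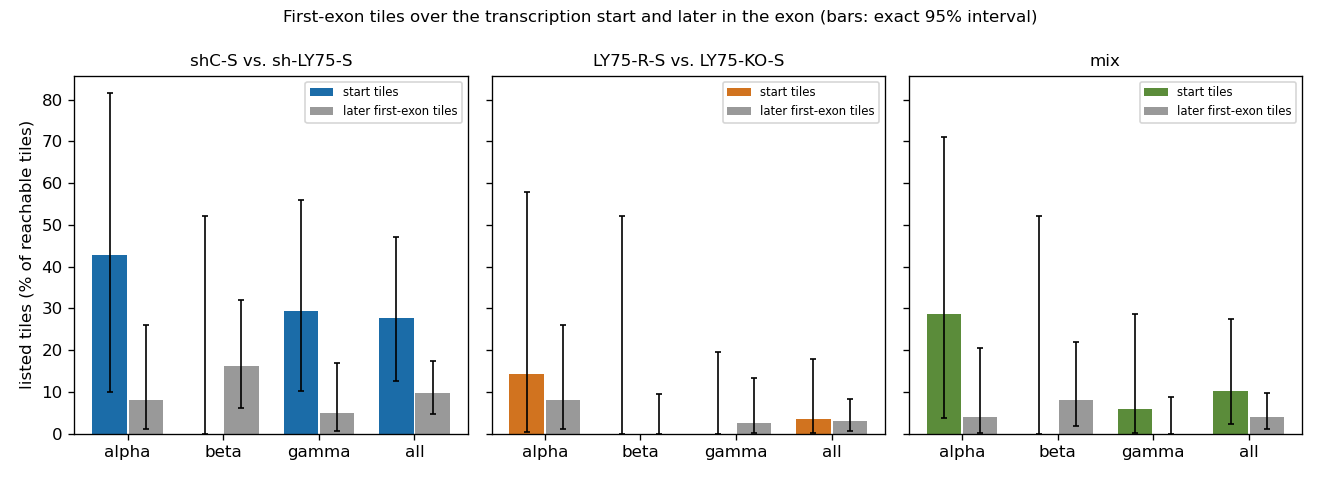
Listed tiles as a percentage of reachable tiles, for tiles over the transcription start (coloured) and later tiles of the first exon (grey), by cluster and table. Error bars are exact 95% binomial intervals; in the knockdown comparison start tiles stand at 42.9% in alpha, 0% in beta and 29.4% in gamma.

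Listed and unlisted first-exon tiles overlapped in their CpG content, but the tiles richest in CpGs were all unlisted. In the knockdown comparison, the 18 listed tiles had a median of 11.5 reachable CpGs (2 to 43) and the 113 unlisted ones of 10.0 (1 to 62). The median of all CpGs was 39.0 in listed tiles (13 to 72) and 45.0 in unlisted tiles (3 to 120). Listed tiles held at most 69 CpGs in the knockout comparison and 72 in the mix, where unlisted ones also reached 120. This upper limit was seen with the tables known and was not tested. In the mix the 7 listed tiles had a median of 9.0 reachable CpGs against 10.0 in unlisted ones.

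**Figure D4:**
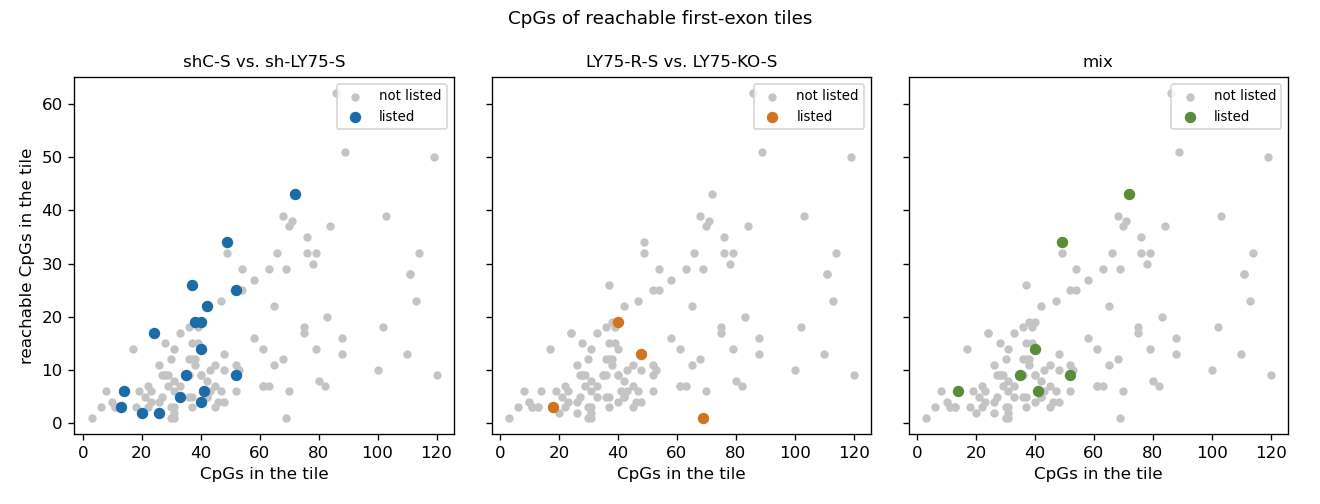
Reachable first-exon tiles of the 53 genes by all CpGs (x axis) and reachable CpGs (y axis) of the tile, 1 point per tile and 1 panel per table. Listed tiles (coloured) lie among the unlisted ones (grey), with 11.5 against 10.0 reachable CpGs at the median in the knockdown comparison. Listed tiles hold at most 72 CpGs in any panel, whereas unlisted ones hold up to 120.

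The promoters themselves were mostly out of reach. In the 250 bases before the first exon, 15 of 53 genes (28.3%) had an MspI site, against 72.6% of 19756 protein-coding genes, and the median CpG number was 5.0 against 18.0. Clustered protocadherin promoters are known for a conserved sequence element with the core CGCT. These letters occurred on either strand in 50 of 53 windows (94.3%) and in 77.1% of all windows of that length. The longer GATGTCGCT, which contains the core and was searched for after the alpha windows had been seen, occurred in 10 of 15 alpha windows, in 0 of 16 beta and 0 of 22 gamma windows, and in 0.121% of all windows. A match is a description of letters and not a mapped site. The windows of PCDHA1 (chr5:140165475-140165724), PCDHA5 (chr5:140200948-140201197) and PCDHGB6 (chr5:140787338-140787587) are shown as examples of genes whose start tiles were listed in more than 1 table. They are on the plus strand of GRCh37, with CGCT in capitals.
PCDHA1: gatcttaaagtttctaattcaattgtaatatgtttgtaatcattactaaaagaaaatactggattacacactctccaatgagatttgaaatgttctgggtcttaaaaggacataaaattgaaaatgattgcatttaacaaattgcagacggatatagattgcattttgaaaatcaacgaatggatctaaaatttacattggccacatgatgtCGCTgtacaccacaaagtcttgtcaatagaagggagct
PCDHA5: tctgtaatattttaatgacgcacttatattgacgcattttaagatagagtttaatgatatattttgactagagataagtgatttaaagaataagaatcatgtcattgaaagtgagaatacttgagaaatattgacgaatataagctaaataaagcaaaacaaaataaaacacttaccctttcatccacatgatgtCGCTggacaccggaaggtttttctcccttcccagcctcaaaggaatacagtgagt
PCDHGB6: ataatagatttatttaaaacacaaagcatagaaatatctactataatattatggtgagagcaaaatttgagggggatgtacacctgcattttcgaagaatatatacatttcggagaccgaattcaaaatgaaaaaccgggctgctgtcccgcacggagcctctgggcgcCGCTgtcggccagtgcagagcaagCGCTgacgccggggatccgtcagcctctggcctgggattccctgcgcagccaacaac
The alpha windows are AT-rich, with 3 CpGs in PCDHA1 and 5 in PCDHA5, and the letters gatgtCGCT stand in both. The PCDHGB6 window holds 14 CpGs and CGCT in other surroundings.

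The knockout comparison shared few tiles with the other tables. Of the 30 tiles listed in any table, 0 were in all 3. The single comparisons shared 1 tile, which was 4.35% of the 23 and 14.3% of the 7. Genome-wide they shared 8344 tiles, 16.3% of those in the knockdown comparison and 29.5% of those in the knockout comparison. Of the 12 tiles of the mix, which contains the libraries of both, 11 were in the knockdown comparison and 0 in the knockout comparison. The overlap of the mix with either was not counted genome-wide, so these counts show nothing particular to the clusters. In the knockdown comparison listed tiles lay at a median step of 21 kb, with 3 pairs of adjoining tiles, at PCDHA1, PCDHGA10 and PCDHGC5, and no longer run.

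Genes that act on the clusters or on their proteins were examined for a listed tile within 1000 bases of a transcription start. Of the 16899 genes with a reachable tile there, 24.8% had a listed one in the knockdown comparison, 8.84% in the knockout comparison and 11.9% in the mix. Of 18 regulators of the clusters, among them CTCF, the cohesin subunits that loop promoters to enhancers, and the DNA methyltransferases, 2 were listed in the knockdown comparison, 1 in the knockout comparison and 1 in the mix. These were DNMT3B, which methylates the promoters, and REST, a repressor of neuronal genes, then the cohesin subunit STAG2, and TRIM28, a corepressor. No regulator was listed in more than 1 table, and CTCF, SMCHD1 and SETDB1 in none. Of 11 genes of signalling and processing, 3, 0 and 1 were listed. In the knockdown comparison these were the kinases FYN and PTK2B, and AXIN1, a scaffold of beta-catenin degradation. PTK2B was listed in the mix too. Of 12 non-clustered protocadherins elsewhere in the genome, 10 of them reachable, 6, 0 and 3 were listed. PCDH8, PCDH9, PCDH10, PCDH17, PCDH19 and PCDH20 were listed in the knockdown comparison, and PCDH10, PCDH17 and PCDH19 also in the mix. Within the same distance 14 of all 53 clustered genes, reachable there or not, were listed in the knockdown comparison, 2 in the knockout comparison and 6 in the mix.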

How the data were processed

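DNA methylation was measured by RRBS in 4 SKOV3 libraries, 1 per clone, with MspI digestion and single reads of 50 bases. The submitters' processing notes name Trim Galore 0.4.1, Bismark 0.16.1, FastQC, methylKit and hg19, while the labels' protocol names Trimmomatic. With methylKit, the authors compared libraries over tiles of 1000 bases and deposited the tiles past a difference of 25 percentage points and, by the deposited names, a q-value of 0.01. The paper's text gives another limit for the adjusted p-value. The deposited tables give for each tile its position and the authors' own comparison, a p-value, a q-value and a difference in percent methylation. Those 3 columns were not used, so no direction, size or p-value is given. The tables hold no read counts and no level per library, so the depth is unknown and no coverage minimum could be varied.

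Tiles were assigned to first exons, constant exons, exons of other genes, promoters (1000 bases before a first exon) and the remainder with GENCODE release 44 on GRCh37, each to the first class it overlapped, by the canonical or, where none was tagged (2 genes), the longest coding transcript. Reachable tiles were computed from the GRCh37 sequence, and this step was tested on simulated sequence. Sequences were read from the same genome. Shares have exact (Clopper-Pearson) 95% intervals, which cover counting error only. Listed with positions were the genes with a first-exon tile in both single comparisons, up to 5 per cluster with the most listed first-exon tiles, the C-type genes and the first and last gene of each cluster. Remaining genes with a listed tile were added after their values were seen. The members and lists were chosen with earlier results of these data known. One gene of the signalling and processing list is not reported here. Alternatives concerned the reachable tiles, the interval, the definition of a first-exon tile and the match between tables. The analysis was written in Python 3.11.15, with numpy 2.4.6, matplotlib 3.10.9, scipy 1.17.1 and pandas 2.3.3.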

Additional observations from a re-analysis of the deposited data

How the results depend on the processing

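Of 28 alternative values, 22 stayed within the limits set for them and 6 moved. When every tile with an MspI site was counted as reachable, the share listed in the knockdown comparison was 5.58% and that of the genome 4.45%. The clusters thus stood above the genome there and below it otherwise (10.4% against 12.5%). In the mix the shares were then 2.91% and 1.82%, further apart than by the main measure (5.41% against 5.18%). In the knockout comparison they were 1.7% and 2.45%, so the clusters stayed below the genome. With a first-exon tile defined as the tile that holds the transcription start, 8 genes were listed in the knockdown comparison, 1 in the knockout comparison and 3 in the mix, since fewer tiles are counted. Within 1000 bases of the start, 2 genes were listed in the knockout comparison. With adjoining tiles counted as shared, 2 tiles were shared between the single comparisons. Over chromosome 5 alone the background was 12.6%, 6.45% and 5.2%. The thresholds of the authors could not be varied, and with 1 library per clone none could be left out. No paired analysis was possible because each clone was 1 library. The tiles were listed by the authors' own comparisons, and no test was run here on the counts. RRBS reach limits all counts, as 628 of the 850 tiles could not be read by the main measure.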
